A study of Mus musculus with 6 samples.

Results

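Scrt1, Scrt2, Npas1, Insm1, Myt1, Myt1l, Neurog2, Pax6 and Sox1 are 9 mouse genes for transcription factors of neural development, and they were taken by symbol from a table of 31641 genes. They were chosen by their function and on their KD and CON counts, the same values described below. RNA was measured by sequencing in E14 cells, a mouse embryonic stem cell line, in 3 knockdown libraries (KD) and 3 control libraries (CON). Per the labels, KD cells carried the Nat10 knockdown and had received Dox (read here as doxycycline), whereas CON cells had wild-type Nat10 and no Dox. The product of Nat10 acetylates cytidines in RNA, and the study is about this mark on mRNA and pluripotency. The way doxycycline lowered Nat10 was not given in the sources used here. Because every KD library and no CON library had the drug, its effect and that of the knockdown cannot be told apart. Whether replicates came from separate cultures is not in the labels, and p-values here measure only the spread between libraries, which may be technical.

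The 9 genes act at successive steps by which a cell becomes a neuron. SOX1 and PAX6 mark and maintain neuroepithelial progenitors, and the proneural basic helix-loop-helix (bHLH) factor NEUROG2 commits progenitors to the neuronal fate. The zinc-finger factors INSM1, SCRT1, SCRT2, MYT1 and MYT1L act mainly as repressors during differentiation, SCRT proteins being relatives of SNAIL that bind E-box motifs and MYT1L a repressor of non-neuronal programs. NPAS1 is a bHLH-PAS factor of interneurons that pairs with ARNT proteins. INSM1, PAX6 and MYT1 also act in endocrine cells of the pancreas. Many genes of neurons are silenced in stem cells by the repressor REST.

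The libraries held 33770755 to 39524273 counts in KD and 35304394 to 39450202 in CON. Nat10 averaged 27.4 ± 1.24 CPM (counts scaled to a common library total) in KD and 149 ± 2.93 in CON (SD, n = 3 each), with edgeR adjusted p = 4.22e-14. The totals were adjusted by the TMM method, which allows for libraries of different composition. All 8 stem cell markers examined were lower in KD, with a summed level of 2191 to 2250 CPM in KD and 6288 to 6341 in CON, so transcripts of the labelled cell type were found in both groups. Of 18019 genes with enough counts to test, 63.0% differed, 32.2% being higher and 30.8% lower in KD, at an edgeR adjusted p under 0.05, the threshold used throughout. When library size alone set the scale (size-only scaling), the median log2 fold change of all genes was 0.25 in place of 0.02, and 8275 genes were higher and 3535 lower.

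Scrt1 and Npas1 were many times higher in KD, Myt1l was slightly higher, and the progenitor genes Sox1 and Pax6 and the differentiation gene Insm1 were lower. Myt1 overlapped between groups, and Scrt2 and Neurog2 had too few counts to test. Among the 7 tested genes, 3 were called higher, 3 lower and 1 neither, beside 63.0% of all tested genes called in either direction, 32.2% higher and 30.8% lower. All KD libraries lay above all CON libraries for 3 of the 7 and below them for 3, beside 34.4% and 32.8% of all tested genes. The genes were selected with their KD and CON values known, so nothing is read from these counts, and their differences are described without a test. In these bulk samples, fewer cells of a type and less RNA per cell cannot be told apart.

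Sox1, which keeps neural progenitors in their undifferentiated state, had 0.763, 0.537 and 0.546 CPM in the KD libraries, against 1.52, 1.84 and 1.75 CPM in the CON libraries, here and below in the order of their replicate numbers. Every KD library lay below every CON library, and the fitted level was 2.76-fold lower in KD (log2 fold change -1.46, SE 0.27). These values rest on 75 counts in the KD libraries together and 176 in the CON libraries. The gene is a single exon on chromosome 8 from 12395295 to 12400126 on the forward strand (GRCm38, GENCODE M21), and 86 of its bases are shared with the microRNA gene model Gm25239 on the same strand.

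Pax6, the paired-box factor of eye, forebrain and pancreas, had 0.429, 0.584 and 0.765 CPM in the KD libraries, against 0.821, 1.18 and 1.93 CPM in the CON libraries. The groups did not overlap, but the highest KD library and the lowest CON library were close. The fitted level was 2.22-fold lower in KD (log2 fold change -1.15, SE 0.36). The CON spread was wide because CON-3 was high, and without CON-3 the log2 fold change was -0.77 and no longer past the threshold. Pax6 lies on chromosome 2 from 105668900 to 105697364.

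Neurog2, the proneural gene of the cortex and sensory ganglia, was barely detected. It had 10, 2 and 0 counts in the KD libraries, against 0, 2 and 2 counts in the CON libraries. The groups overlapped, and 10 of the 12 KD counts came from KD-1. A count of 0 allows up to 0.0819 CPM in KD-3 and 0.088 CPM in CON-1, taking 3 counts as the limit. No difference in Neurog2 was detectable at this depth. The gene lies on chromosome 3 from 127633135 to 127635631.

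Insm1, a zinc-finger repressor that drives progenitors out of the cell cycle and matures neuroendocrine cells, had 1.19, 1.35 and 1.15 CPM in the KD libraries, against 3.46, 3.85 and 4.05 CPM in the CON libraries. The groups lay far apart relative to their spread, at 1.23 ± 0.109 CPM in KD and 3.79 ± 0.301 CPM in CON (SD, n = 3 each). The fitted level was 3.06-fold lower in KD (log2 fold change -1.62, SE 0.18). Insm1 is an intronless gene on chromosome 2 from 146221921 to 146225020.

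Scrt1, which encodes a repressor found mainly in newly formed neurons, showed the widest gap of the 9 genes. Its raw counts were 198, 232 and 120 in the KD libraries, against 4, 5 and 0 in the CON libraries. On the CPM scale these were 4.72, 5.42 and 3.28 in KD, against 0.117, 0.137 and 0 in CON, where the 0 of CON-3 allows up to 0.0921 CPM. No library of one group came near those of the other. The fitted rise was 49.6-fold (log2 fold change 5.63, SE 0.40), and its size depended on the few CON reads, with a log2 fold change of 5.10 without CON-3 and 6.15 without CON-2. Scrt1 entered the test through its KD libraries alone. Its gene occupies 76516203 to 76522499 of chromosome 15, reverse strand.

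Scrt2, its close relative, stayed near the limit of detection. It had 12, 8 and 16 counts in the KD libraries, against 6, 2 and 4 counts in the CON libraries. All KD libraries were above all CON libraries, by 0.187 CPM in the lowest KD library against 0.176 CPM in the highest CON library, but the counts were too few for the filter. The SCRT genes therefore stood at different levels in KD, with 1.1 ± 0.269 FPKM, a level per kilobase of gene length, for Scrt1 and 0.0967 ± 0.0403 FPKM for Scrt2, against 0.0179 ± 0.0157 and 0.0321 ± 0.0166 FPKM in CON (SD, n = 3 each). Scrt2 lies on chromosome 2 from 152081529 to 152095802.

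Myt1l, a zinc-finger factor used with others to turn fibroblasts into neurons in culture, had 2.72, 2.64 and 2.51 CPM in the KD libraries, against 1.88, 2.17 and 1.2 CPM in the CON libraries. The groups did not overlap, and KD was the tighter of the pair. The fitted rise was 1.49-fold (log2 fold change 0.58, SE 0.22). It missed the threshold without KD-1, KD-2, CON-1 or CON-3, at log2 fold changes of 0.55, 0.57, 0.62 and 0.37. The gene spans chromosome 12 from 29528384 to 29923213, and 633 of its 14018 exonic bases overlap the gene model Gm20208 on the opposite strand, whose reads cannot be told apart without a stated strand setting.

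Myt1, the founding member of that family and also active in oligodendrocyte and endocrine precursors, had 0.238, 0.467 and 0.273 CPM in the KD libraries, against 0.352, 0.33 and 0.0614 CPM in the CON libraries. The groups overlapped, and the lowest value was that of CON-3, with 2 counts. The log2 fold change was 0.38 with an SE of 0.56, larger than the estimate, and -0.06 without CON-3. Myt1 lies on chromosome 2 from 181763332 to 181827797.

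Npas1 had the highest level of the 9 genes in KD. Its raw counts were 890, 908 and 603 in the KD libraries, against 36, 30 and 35 in the CON libraries. In CPM it averaged 19.6 ± 2.73 in KD and 0.985 ± 0.139 in CON (SD, n = 3 each). The groups were far apart, and KD-3 was the lowest of the KD libraries, as it was for Scrt1. The fitted rise was 20-fold (log2 fold change 4.32, SE 0.16) and, unlike that of Scrt1, it rests on at least 30 counts in every CON library. Its gene occupies 16455721 to 16477728 of chromosome 7, reverse strand.

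**Figure D1:**
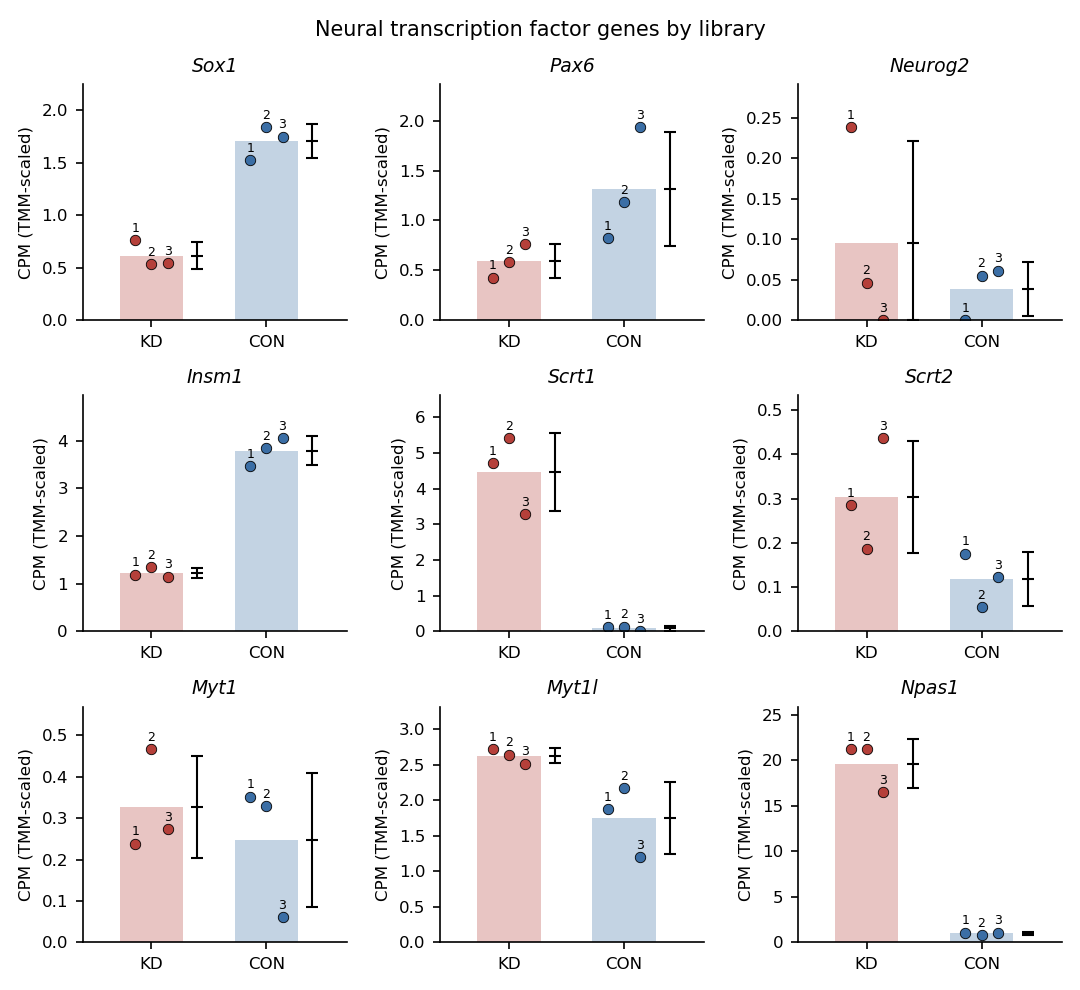
TMM-scaled CPM of the 9 genes, KD left and CON right in each panel; points are libraries numbered as in the labels, bars are means, and the error bar beside each bar is the SD of 3 libraries (lower end stopped at 0). Scrt1 and Npas1 stand out in KD, Sox1 and Insm1 are lower there, and Neurog2 and Myt1 overlap.

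The processing moved the fold changes of the 7 tested genes to different extents. Across 13 alternatives the log2 fold change ran from 5.10 to 6.15 for Scrt1, from 4.20 to 4.55 for Npas1, from -1.70 to -1.39 for Insm1 and from -1.66 to -1.24 for Sox1. For Pax6 it ran from -1.40 to -0.77 in 12 alternatives and for Myt1l from 0.37 to 0.81 in 13. Size-only scaling turned none of the 7 values.

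**Figure D2:**
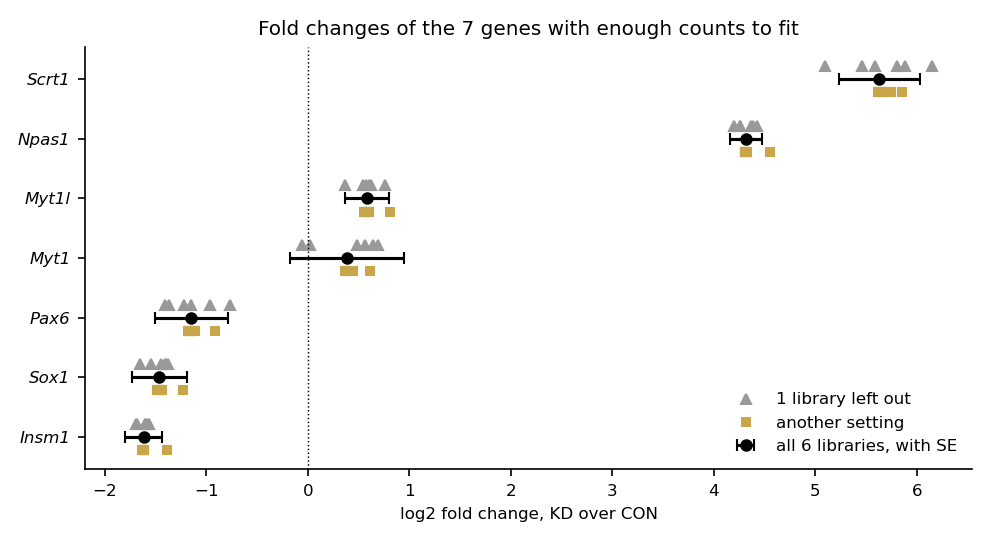
Log2 fold change of KD over CON for the 7 genes with enough counts, with the SE of the fit to all 6 libraries (black), the values with 1 library left out (grey) and those under other settings (yellow). Scrt1 and Npas1 lie far to the right of 0, Insm1, Sox1 and Pax6 to its left, and the values of Myt1 fall on both sides.

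The order of the genes by level per length differed between groups. In KD, by deposited FPKM, Npas1 came first at 7.06 ± 0.975, followed by Scrt1, Insm1 at 0.43 ± 0.0383, Myt1l at 0.203 ± 0.00757 and Sox1 at 0.138 ± 0.0283 (SD, n = 3). These first 5 did not overlap one another, whereas Sox1, Scrt2, Pax6 and Myt1 each overlapped the next in line, with Neurog2 last. In CON, Insm1 came first at 1.13 ± 0.0872 FPKM, followed by Sox1 at 0.326 ± 0.0304 and Npas1 at 0.302 ± 0.0431, which overlapped, then Myt1l and Pax6, which also overlapped, and Scrt2, Myt1, Scrt1 and Neurog2 at the end with overlapping libraries. Scrt1 thus ranked 2 of 9 in KD and 8 of 9 in CON. All these levels are modest for the table as a whole. Npas1 in KD was above 78% of the 31641 genes and Insm1 in CON above 61.9%, whereas Neurog2 was above 26% in KD and 17.9% in CON.

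**Figure D3:**
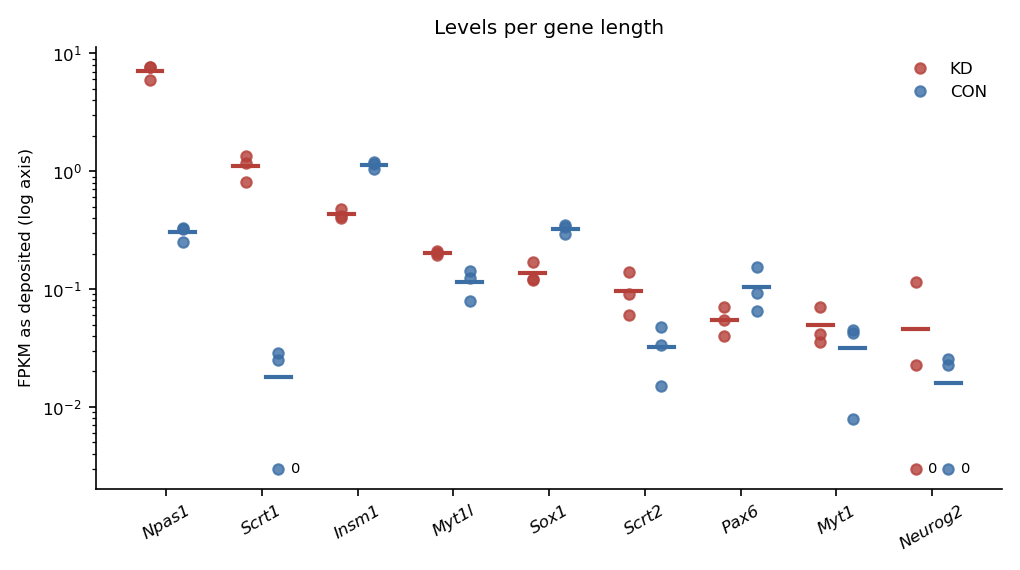
Deposited FPKM on a log axis, KD to the left of CON for each gene; points are libraries, lines are means, and values of 0 are drawn at the bottom and marked 0. Npas1 leads in KD at 7.06 FPKM and Insm1 leads in CON at 1.13 FPKM.

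Even numbers prevailed among the counts of the weakest genes. Of the 54 library values of the 9 genes, 51 were above 0 and 39 of these were even. For Scrt2, Myt1 and Neurog2, all 16 values above 0 were even. Over all genes, 70 to 71.7% of counts from 1 to 20 were even in each library, where an equal split would be near the middle. Limits taken from counts cover counting error only and treat each count as 1 molecule. Whether reads were counted in pairs was not tested. With counts divided by 2 and rounded, Myt1 fell below the filter as well and 6 of the 9 genes were tested.

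Of the 9 genes, 4 lie on chromosome 2, namely Pax6, Insm1, Scrt2 and Myt1, beside 8.4% of protein-coding genes in GENCODE M21. Nat10 is on the same chromosome from 103721256 to 103761270, and 1907629 bases separate it from Pax6. Pax6 and Insm1 were lower in KD, Myt1 overlapped, and Scrt2 had all KD libraries above all CON libraries at counts too low to test. The part of position in these values was not tested.

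Promoter windows from RefSeq (GRCm38.p6), from 250 bases before to 50 after an annotated start, were matched for 6 of the 9 genes, in 13 windows. None was matched for Scrt1, Scrt2 or Insm1. Upstream parts of 3 windows are shown, without annotated exons, for a gene far higher in KD (Npas1), a gene lower in KD (Pax6) and a gene whose groups overlapped (Myt1). Letters run 5′ to 3′ on the gene's strand, and capitals mark a match to a searched motif on either strand. Npas1 is chr7:16476781-16477030 on the reverse strand, and Pax6 is chr2:105668646-105668895 and Myt1 chr2:181763082-181763331, both on the forward strand. The Npas1 part lies inside the GENCODE M21 span of the gene given above.
Npas1: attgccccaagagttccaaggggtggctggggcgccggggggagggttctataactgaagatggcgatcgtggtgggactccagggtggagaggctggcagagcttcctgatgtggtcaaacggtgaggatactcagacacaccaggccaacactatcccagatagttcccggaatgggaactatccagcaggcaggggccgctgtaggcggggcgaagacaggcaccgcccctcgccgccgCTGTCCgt
Pax6: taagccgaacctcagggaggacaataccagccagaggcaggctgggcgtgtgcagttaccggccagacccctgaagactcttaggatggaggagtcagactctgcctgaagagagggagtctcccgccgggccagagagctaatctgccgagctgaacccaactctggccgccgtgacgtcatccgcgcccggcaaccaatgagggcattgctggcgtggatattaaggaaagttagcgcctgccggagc
Myt1: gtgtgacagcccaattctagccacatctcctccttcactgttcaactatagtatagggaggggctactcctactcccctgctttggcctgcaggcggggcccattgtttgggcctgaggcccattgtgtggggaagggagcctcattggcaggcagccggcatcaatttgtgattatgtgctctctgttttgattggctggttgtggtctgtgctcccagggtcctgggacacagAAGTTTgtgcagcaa

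The promoters differed in base composition. The full windows of the parts shown for Npas1 and Pax6 held 20 and 18 CG pairs at 64.3 and 58.7% GC. That for Myt1 held 2 at 53.7% GC. The medians over 32851 windows were 7 CG pairs and 52.7% GC. A further window of Pax6 held 16 CG pairs at 46.3% GC, and further windows of Myt1 held 1 each at 39.3 and 48.7% GC. The window of Sox1 held 37 CG pairs at 70.7% GC. The RE1 motif to which REST binds has a left and a right part. The left part, CAGCACC, was in 0 of the 13 windows and in 7.14% of all windows, and the right part, GGACAG, was in 4 windows, of Npas1, Myt1, Myt1l and Neurog2, and in 22.2% of all. Both parts in that order with 2 bases between them were in 0 of the 13 and in 0.0365% of all windows. The E-box CAGGTG was in 0 of the 13 windows and in 20.2% of all, CAGATG in 3 windows, all of Myt1l, and in 17.2% of all, and CAGCTG in 1 window, also of Myt1l, and in 16.3% of all. AAGTTT, the core motif of the MYT1 family, was in 3 windows, of Myt1 and Pax6, and in 14.4% of all. A match is a description of these letters, and no match says only that the letters are not in the window. Some windows overlap annotated exons. Among them, all 250 upstream bases were exonic in the further window of Pax6 and in the Myt1l window with CAGCTG, and 224 were in that of Sox1.

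Genes with a like profile were sought among 18826 named genes by the root mean square difference in log2(FPKM + 0.1) over the 6 libraries. Insm1 was matched most closely by Myo1g (difference 0.0579), an unconventional myosin gene, and then by Dll1 (0.0817), which encodes a Notch ligand. Npas1 was nearest to the secretory granule gene Scg3 (0.367). Scrt1 was nearest to the potassium channel gene Kcnc1 (0.243), followed by Syndig1l (0.339) and Mir132 (0.347). Myt1l was nearest to Afp (0.0435), the alpha-fetoprotein gene, and Sox1 to Clvs2 (0.143). The 6 libraries fall into 2 groups, so the measure compares mainly a level and a difference between groups, and for the genes of low level it is also set by the offset.

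Other proneural bHLH genes, the class of Neurog2, were mostly too low to test. Of 19 listed, 5 were tested, 0 were higher and 1 was lower, beside 32.2% and 30.8% of all genes. At an unadjusted edgeR p under 0.05 the counts were also 0 and 1, and DESeq2 gave 0 higher. Nhlh1, which encodes a neuronal bHLH factor, fell 5.99-fold, at 0.0944 ± 0.0817 CPM in KD and 0.604 ± 0.105 in CON (edgeR adjusted p = 0.00153). It had 6, 6 and 0 counts in KD and 24, 18 and 20 in CON, so it passed the count filter through CON alone, the group where it was high, and it was named after its values were seen. Neurog1 had 10, 16 and 10 counts in KD and 8, 0 and 2 in CON, and it was not tested. It was also named after its values were seen. Among other untested genes of the list, Neurod4 had all KD libraries above all CON libraries and Bhlhe23 had all below. Atoh8 and Neurog3 overlapped.

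Genes that restrain bHLH factors moved in both directions. The list of HES, HEY and ID genes also holds Bhlhe40 and Bhlhe41. Of its 11 tested genes, 3 rose (27.3%) and 4 fell (36.4%) in KD, beside 32.2% and 30.8% of all genes. The median log2 fold change was 0.09, beside 0.02 for all genes. Bhlhe41 was among the genes that rose and Bhlhe40 among those that fell. Id3, whose product sequesters bHLH partners, rose 1.74-fold to 89.4 ± 6.25 CPM in KD, against 51.4 ± 1.24 in CON (edgeR adjusted p = 1.38e-08), while its relative Id1 fell 1.32-fold. Hes6, which favours neuronal differentiation, rose 1.45-fold. The counts were 4 higher and 2 lower with size-only scaling, beside 8275 higher and 3535 lower of all 18019 genes. Without KD-3, 5 were higher.

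Notch signalling lets neighbouring cells hold each other back from differentiation. Of its 19 tested genes, 5 rose (26.3%) and 8 fell (42.1%) in KD, beside 32.2% and 30.8% of all genes, and the median log2 fold change was -0.16. Rbpj, the DNA-binding partner of activated Notch, fell 3.1-fold, at 218 ± 14.1 CPM in KD and 674 ± 17.1 in CON (edgeR adjusted p = 5.97e-13). The ligand gene Dll1 fell 2.82-fold, at 1.75 ± 0.0762 CPM in KD and 4.94 ± 0.142 in CON. Of its exonic bases, 20.5% overlap a gene model on the opposite strand. Dll1 was named for its likeness to Insm1, which was lower in KD, so its own fall follows from that choice. Lfng, which modifies Notch receptors, fell 6.35-fold. The coactivator gene Maml3 rose 2.43-fold and the receptor gene Notch3 1.5-fold. Size-only scaling turned the split to 8 higher and 5 lower and the median to 0.07. For all 18019 genes it gave 8275 higher and 3535 lower and a median of 0.25.

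Further transcription factors of neural progenitors were also split. Of 33 tested, 13 rose (39.4%) and 15 fell (45.5%) in KD, where 32.2% and 30.8% of all genes did, and the median log2 fold change was -0.08. Pax5 and Pax3, of the family of Pax6, rose 5.3-fold and 3.1-fold, at 2.49 ± 0.366 CPM in KD and 0.472 ± 0.181 in CON for Pax5. Of the same family, Pax7 and Pax8 fell 2.34-fold and 1.65-fold, and Pax2 did not pass the threshold. Lhx2, which acts in eye and forebrain, rose 2.37-fold. Sox2, of the same subgroup as Sox1 and also a pluripotency factor, fell 3-fold, and Sox21, picked after its value was seen and sharing 18.8% of its exonic bases with an antisense gene model, fell 2.32-fold. Sox3, another SOX gene of the list, did not pass the threshold, at 4.94 ± 1.4 CPM in KD and 5.27 ± 0.369 in CON. Gli1, a target of Hedgehog signalling, fell 5.04-fold. Under size-only scaling 14 rose and 12 fell, beside 8275 and 3535 of all 18019 genes.

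Of 31 tested transcription factors of later neuronal differentiation, 9 rose and 6 fell (19.4%) in KD, where 32.2% of all genes rose and 30.8% fell, and the median log2 fold change was 0.32. Pou4f1, a factor of sensory neurons, rose 3.22-fold, at 19.7 ± 1.01 CPM in KD and 6.11 ± 0.588 in CON (edgeR adjusted p = 1e-09). Its relative Pou4f2, of retinal ganglion cells, fell 10.1-fold to 0.278 ± 0.132 CPM in KD, against 2.85 ± 0.285 in CON (edgeR adjusted p = 1.18e-07). Pou4f2 had 18, 8 and 8 counts in KD and 86, 110 and 98 in CON. It thus passed the count filter through CON, the group where it was high. Prox1 rose 3.89-fold and Onecut2 2.17-fold. Under size-only scaling 13 rose and 2 fell, and the median was 0.55. Of all 18019 genes, 8275 then rose and 3535 fell, with a median of 0.25.

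**Figure D4:**
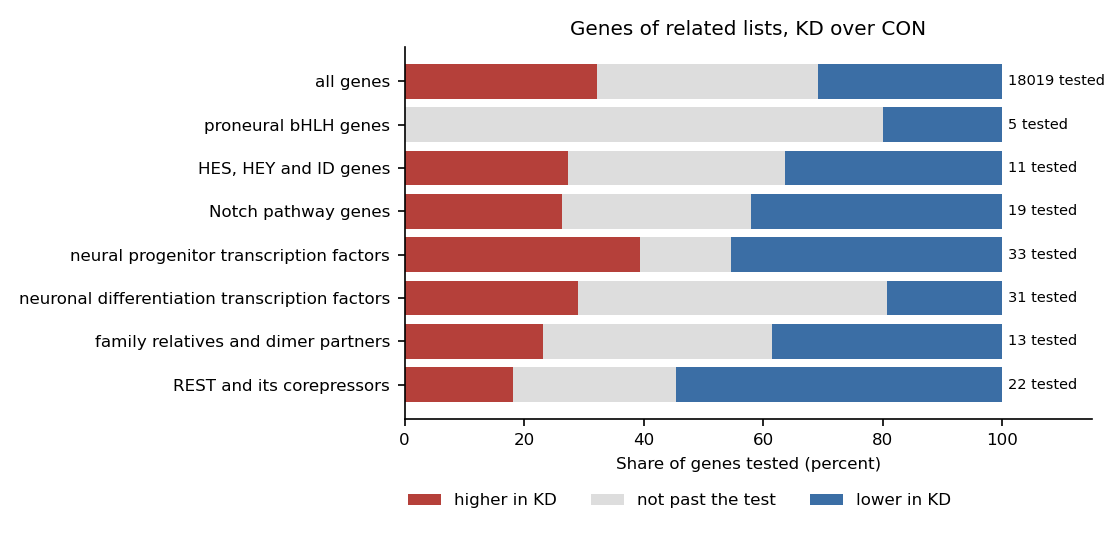
Share of tested genes that were higher (red), not past the test (grey) or lower (blue) in KD, for all 18019 tested genes and for 7 lists of related genes that exclude the 9 described here. Only 5 of 19 proneural genes were tested. The list of HES, HEY and ID genes also holds Bhlhe40 and Bhlhe41. The list of REST and its corepressors has 12 of 22 genes lower with TMM scaling, as drawn, and 7 of 22 with size-only scaling. With size-only scaling 3535 of all 18019 tested genes are lower.

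Among relatives and partners, 3 of 13 tested genes rose (23.1%) in KD and 5 fell (38.5%), beside 32.2% and 30.8% of all genes, and the median log2 fold change was -0.14. Npas3, a relative of Npas1, rose 3.76-fold from a low level, at 0.591 ± 0.0663 CPM in KD and 0.154 ± 0.0847 in CON (edgeR adjusted p = 0.00317). It passed the count filter through KD alone, the group where it was high, and was named after its values were seen. The dimer partner genes of the bHLH-PAS family differed in direction, since Arnt2 rose 1.81-fold, at 38.9 ± 1 CPM in KD and 21.5 ± 1.31 in CON, and Arnt fell 1.41-fold, at 110 ± 4.19 CPM in KD and 156 ± 3.26 in CON. Snai2, a relative of the SCRT genes, rose 2.21-fold (edgeR adjusted p = 0.0122), a call lost without KD-2 or CON-2, at log2 fold changes of 0.95 and 0.94. It too was named after its values were seen. Its relatives Snai1 and Snai3 did not pass the threshold, at log2 fold changes of 0.11 and 0.19. Npas2 and Sim2, of the same list, did not pass either, at -0.14 and -0.15. Insm2, a relative of Insm1, and St18, a further member of the MYT1 family, had too few counts to test. Under size-only scaling the counts were 5 higher and 3 lower, beside 8275 and 3535 of all 18019 genes. Leaving out KD-2 gave 3 lower genes, as did leaving out CON-1, and leaving out KD-3 gave 5 higher genes.

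Genes of REST and its corepressors were lower more often than higher with TMM scaling. Of 22 tested, 4 rose (18.2%) in KD and 12 fell (54.5%), beside 32.2% and 30.8% of all genes, and the median log2 fold change was -0.20. Size-only scaling gave 9 higher and 7 lower and a median of 0.03, beside 8275 higher and 3535 lower of all 18019 genes and their median of 0.25. Rest itself fell 3.82-fold, at 101 ± 4.44 CPM in KD and 385 ± 3.24 in CON (edgeR adjusted p = 5.53e-14). Rcor2, a scaffold of the complex, fell 1.93-fold, and the deacetylase gene Hdac1, whose product INSM1 also recruits, fell 1.59-fold. The rises were small, from 1.1-fold for Rcor1 to 1.18-fold for Rcor3, and leaving out KD-2 or CON-2 left 2 genes higher. Rcor1 missed the threshold without KD-2, CON-2 or CON-3 (log2 fold changes 0.14, 0.14 and 0.12), and Rcor3 without KD-2, CON-1 or CON-2 (0.18, 0.20 and 0.22). No value here bears on whether Rest acts on the 9 genes, and this was not tested.

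**Figure D5:**
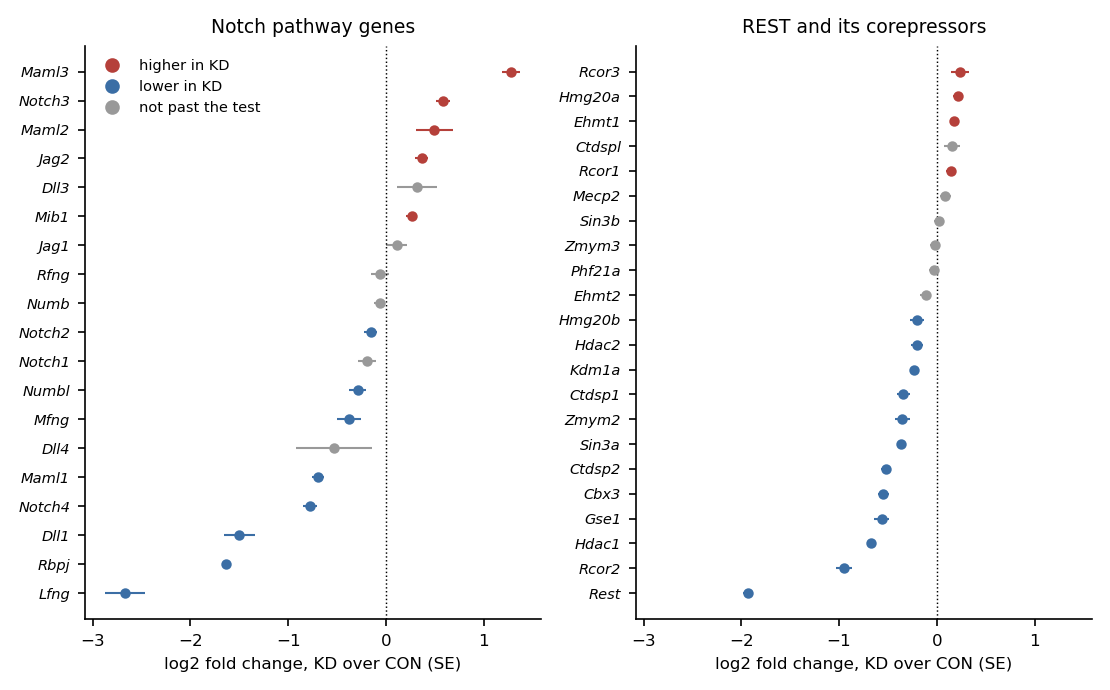
Log2 fold change of KD over CON with its SE for the tested genes of the Notch pathway (left) and of REST and its corepressors (right); red is higher, blue lower and grey not past the test. Rest and Rcor2 are the lowest of their list at 3.82-fold and 1.93-fold lower, and Lfng and Rbpj are the lowest of the Notch genes.

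Marker lists of other cell types held genes that moved in both directions. Their counts stand beside 32.2% of all tested genes higher and 30.8% lower in KD. Of 11 tested neuron markers 4 were higher and 4 lower in KD. The summed level was 68.79 to 76.89 CPM in KD and 166.5 to 168.3 in CON, and Dcx had no entry under that symbol. Among neuron markers Stmn2 averaged 21.8 CPM in KD and 94.6 in CON, and Map2 26 in KD and 9.37 in CON. Of 6 tested neural progenitor markers 4 were higher and 2 lower, with 145.1 to 153.6 CPM in KD and 103.5 to 110.5 in CON. Of 12 listed markers of pancreatic endocrine cells, Ins1, Ins2, Sst and Iapp had no entry under those symbols. Of the 5 tested, 3 were higher and 1 lower. The summed level was 51.56 to 51.94 CPM in KD and 15.82 to 17.04 in CON, mostly from the secretory granule gene Chga. Gcg, the glucagon gene, had 0 counts in every KD library and 2 in all CON libraries together. Fibroblast markers summed to 51.38 to 56.78 CPM in KD and 23.99 to 28.16 in CON, with 3 of 4 tested higher and 1 lower, and glial markers to 54.53 to 60.45 in KD and 57 to 60.64 in CON, with 1 of 6 higher and 2 lower. The part of any of these cell types in the differences of the 9 genes was not tested.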

How the data were processed

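The data are 1 table deposited by the authors for 3 KD and 3 CON libraries made from total RNA. Whether poly(A) RNA was selected was not given in the sources used here. Per the file headers it holds raw counts for each gene and FPKM values. The deposited FPKM equal each count over gene length and library total (100% of values matched the counts within a relative difference of 1e-04). Per the submitters' processing notes, FastQC 0.11.9, STAR 2.5.3a, featureCounts and the build mm10 were used. The sources used here do not give the annotation release, the strand setting or the handling of reads that map to several places. Columns were matched to samples by treatment and number. Dates had replaced 26 symbols, which were restored from gene identifiers.

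The deposited counts were tested with edgeR 4.0.16 in R 4.3.3: filterByExpr (minimum count 10), TMM scaling, and a robust quasi-likelihood F-test of KD over CON on all 18019 genes kept, with Benjamini-Hochberg adjustment over them. Each SE was obtained by dividing the fold change on the log2 scale by the root of F. The alternatives were DESeq2 1.42.0, other scalings and filters, a replicate block, each library left out, and counts divided by 2. Library totals adjusted by TMM give 0.0233 to 0.0307 CPM for 1 count. Limits and SDs cover counting and library spread only. Positions come from GENCODE M21 (GRCm38), the same assembly as mm10. The 9 genes, the lists of related genes and the markers were chosen with earlier results of these data known. The rule for naming allowed from each list at most 4 passing genes in each direction, in order of p, if they averaged at least 1 CPM. Dll1 and other genes like a member were named by the likeness rule. Nhlh1, Npas3, Snai2, Sox21, Neurog1, Insm2, St18, Dcx, Chga, Gcg, Stmn2 and Map2 were named after their values were seen. So were Snai1, Snai3, Npas2, Sim2, Pax2, Pax7, Pax8, Sox3, Neurod4, Bhlhe23, Atoh8 and Neurog3.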

Additional observations from a re-analysis of the deposited data

How the results depend on the processing

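All 13 alternatives kept the direction of Scrt1, Npas1, Insm1, Sox1 and Myt1l, and the 12 that could be fitted that of Pax6. Myt1, whose call never passed, changed sign without CON replicate 3, at -0.0597, and ranged up to 0.691 with 1 library left out. The order of genes by FPKM was the same with TMM-scaled CPM per kilobase.

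With libraries scaled by size only, 8275 genes of all tested were higher and 3535 lower in KD. The lists then had 1 proneural gene higher, 2 HES, HEY and ID genes lower, and 8 Notch genes higher and 5 lower. They also had 2 neuronal differentiation factors lower, 5 relatives and partners higher and 3 lower, and 9 REST genes higher and 7 lower. With no filter 1 proneural gene was higher. The filter of at least 1 CPM in 3 libraries left 2 proneural genes to test, of which 0 were lower. It left 10 relatives and partners, of which 1 was higher. Nhlh1 and Npas3 were below 1 CPM in every library, so that filter dropped them before any test. Counts divided by 2 left 3 proneural genes to test, of which 0 were lower. With a library left out, from 0 to 1 proneural genes, 3 to 5 HES, HEY and ID genes, 2 to 5 relatives and partners and 2 to 4 REST genes were higher, and 3 to 5 relatives and partners were lower. Id2, Bhlhe40 and Klf7 kept their direction but missed the threshold with libraries scaled by size only. Rcor3 missed it with no filter and with DESeq2.

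Libraries with the same number did not deviate together, with correlations of -0.0608, 0.0151 and -0.0387. Whether they were prepared as pairs is not in the labels, and these correlations cannot settle it. With the replicate number as a block, 2 REST genes were higher in place of 4, Rcor1 and Rcor3 being lost, and no other list count moved by over 1.5 times. Depth limits Neurog2, Scrt2 and Myt1, which had at most 20 counts in any library.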
